A study of Arabidopsis thaliana with 5 samples.

Results

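NAC proteins are plant-specific transcription factors that share a DNA-binding domain, the NAC domain, and carry a variable activating region after it. Members of the family direct leaf senescence, drought and abscisic acid (ABA) responses, the building of woody cell walls, organ boundaries and, in roots, lateral root formation and programmed cell death. Some are held at a membrane and move to the nucleus when a stress releases them. In roots of Arabidopsis thaliana, 61 NAC genes were examined of 33557 features in the files. They are the features named NAC or ANAC followed only by a number, and a pair of matching loci is not analysed here. Names such as ATNAC3 fall outside that rule, and 37 further genes are NAC genes only by their RefSeq names or synonyms.

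The plants compared were GFP-GrxS5 (2 libraries) and the wild type Col-0 (3 libraries). GrxS5 is a small plant-specific glutaredoxin, from a class whose members bind TGA transcription factors, and the label names it as joined to green fluorescent protein. The labels do not describe the construct's promoter, how many independent lines were used, plant age or growth conditions. The stated aim of the series was to find genes that GrxS5 represses, and the comparison made here is between the genotypes in both directions.

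GrxS5 itself had 103.5 and 124.4 FPKM in GFP-GrxS5 roots, against 3.06, 4.14 and 3.23 FPKM in Col-0 roots, where FPKM is the fragment count scaled for transcript length and library size. Steps in the low values put the depth at 3250000 to 4210000 fragments per GFP-GrxS5 library and 3730000 to 4340000 per Col-0 library, so 1 fragment on a 1.5 kb transcript is worth 0.154 to 0.205 FPKM. The root markers (PYK10, MYB36, SCR, SHR, WER, COBL9, NRT2.1 and CASP1) were detected in all 5 libraries, with 0 past the test as higher and 1 as lower (NRT2.1, a nitrate transporter gene). Photosynthesis genes, used as shoot markers, were detected in every library too. Their summed level over 10 genes was 1355 to 1359 FPKM in GFP-GrxS5 and 564 to 662.6 FPKM in Col-0 libraries, and 8 of the 10 were past the test as higher. Among all 19693 tested genes, 4.73% were past it as higher and 2.35% as lower. The labels call all libraries root, while the extraction protocol names both roots and shoots. A TruSeq kit with a MiniSeq and an NEBNext kit with a NextSeq550 are named in the labels but not assigned to libraries, and a batch from them cannot be told apart from the genotype. Nor is it stated whether replicates are separate plants. The p-values therefore cover only the spread between these libraries, and that spread may be technical. In whole-root RNA, fewer cells of a type and less RNA per cell cannot be told apart either.

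Of the 61 NAC genes, 46 reached 1 FPKM in at least 2 libraries and were tested. Of these, 4 were higher in GFP-GrxS5 roots at an adjusted p under 0.05, 0 were lower and 42 did not pass. The genes that rose were NAC072, NAC055, NAC003 and NAC021. NAC055 and ANAC034 were under 1 FPKM in every Col-0 library and were tested only because both GFP-GrxS5 libraries were above it. Both are in these counts, and 0 members were tested through Col-0 alone. The test was limma on log2(FPKM + 1), two-sided, with Benjamini-Hochberg adjustment over all 19693 tested genes. The 4 are 8.7% of the tested NAC genes, against 7.08% of all tested genes called (4.73% higher and 2.35% lower). At an unadjusted p under 0.05, 7 NAC genes were higher and 0 lower by limma, against 2784 higher and 2011 lower of all 19693 tested genes. The unadjusted counts given below for role groups and gene lists are to be read beside that background. The libraries of both genotypes did not overlap in 15 of the 46 (12 higher, 3 lower in GFP-GrxS5), which is 32.6%, against 42.8% of all tested genes. The share of called NAC genes is thus near that of all genes, and the share without overlap is below it.

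Most of the family kept close levels. The median log2 fold change was 0.09 (quartiles -0.13 and 0.32) over the tested NAC genes and 0.01 (quartiles -0.16 and 0.21) over all tested genes. In 38 of 46 the log2 fold change was under 0.5 in size, and the whole range ran from -0.64 (ANAC020) to 1.36 (NAC072). The median level was 10.1 FPKM in GFP-GrxS5 and 9.64 FPKM in Col-0 roots, below the medians over all tested genes of 15.9 FPKM in GFP-GrxS5 and 15.4 FPKM in Col-0.

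**Figure D1:**
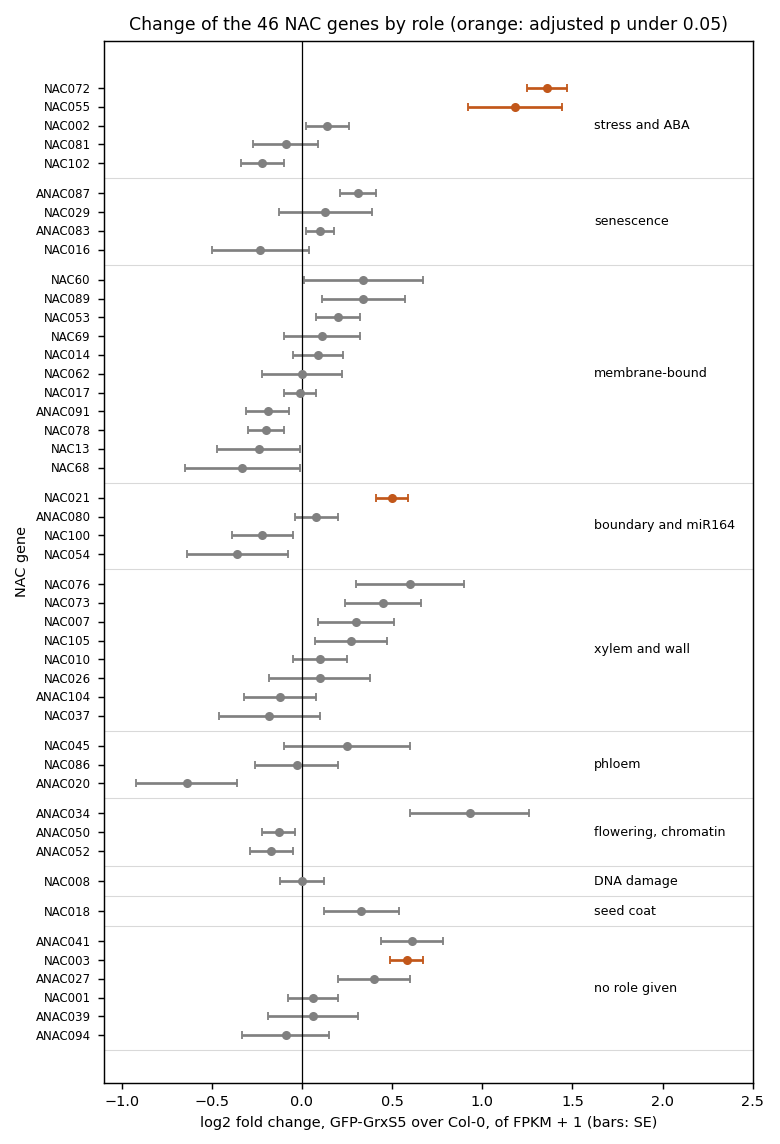
Log2 fold change of GFP-GrxS5 over Col-0 (x axis, log2 scale of FPKM + 1) for the 46 tested NAC genes (rows), grouped by known role. Points are limma estimates, bars are standard errors, and the 4 orange genes (NAC072, NAC055, NAC021 and NAC003) passed an adjusted p under 0.05; most of the others lie within 0.5 of zero.

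The close relatives NAC072, NAC055 and NAC019 are known for acting in drought, ABA and jasmonate responses. NAC072, also called RD26 (AT4G27410; chromosome 4, 13707240 to 13709149), is induced by dehydration and ABA. It had 74.3 and 81.9 FPKM in GFP-GrxS5 roots, against 26.6, 29.4 and 33.4 FPKM in Col-0 roots. The lowest GFP-GrxS5 library lay above the highest Col-0 library by more than the whole spread within either genotype. The mean was 78.1 ± 5.38 FPKM in GFP-GrxS5 (SD, n = 2) and 29.8 ± 3.41 FPKM in Col-0 (SD, n = 3), a ratio of 2.62. The log2 fold change was 1.36 (SE 0.11; limma, Benjamini-Hochberg adjusted p = 0.00116). NAC072 stayed past the threshold in each of the 13 alternative settings, with adjusted p between 0.000917 and 0.0472 and log2 fold changes between 1.29 and 1.45.

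NAC055 (AT3G15500; chromosome 3, 5234617 to 5236088) was close to the detection limit in Col-0. It had 2.7 and 2.75 FPKM in GFP-GrxS5 roots, against 0.565, 0.437 and 0.995 FPKM in Col-0 roots. These levels rest on an estimated 14 to 18 fragments per GFP-GrxS5 library and 3 to 6 per Col-0 library. The log2 fold change was 1.18 (SE 0.26; limma, Benjamini-Hochberg adjusted p = 0.0413). Since NAC055 reached the minimum level through GFP-GrxS5 alone, its lack of overlap was a condition of testing it, and its p is not free of that choice. The call was lost without Col-0 replicate 1, 2 or 3 (adjusted p = 0.0963, 0.0991 and 0.0522; range over all alternatives 0.0329 to 0.0999), and without either GFP-GrxS5 replicate the gene no longer reached the minimum level. It was also lost with a pseudocount of 0.1 (0.0672) or no minimum level (0.0999).

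NAC019 (AT1G52890) was below the minimum level and has no test in the comparison. It had 0.959 and 1.99 FPKM in GFP-GrxS5 roots, against 0, 0 and 0.593 FPKM in Col-0 roots, an estimated 5 to 9 fragments per GFP-GrxS5 library and 0 to 3 per Col-0 library. Both GFP-GrxS5 libraries stood above all 3 Col-0 libraries at this low level. With no minimum level it did not pass either.

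**Figure D2:**
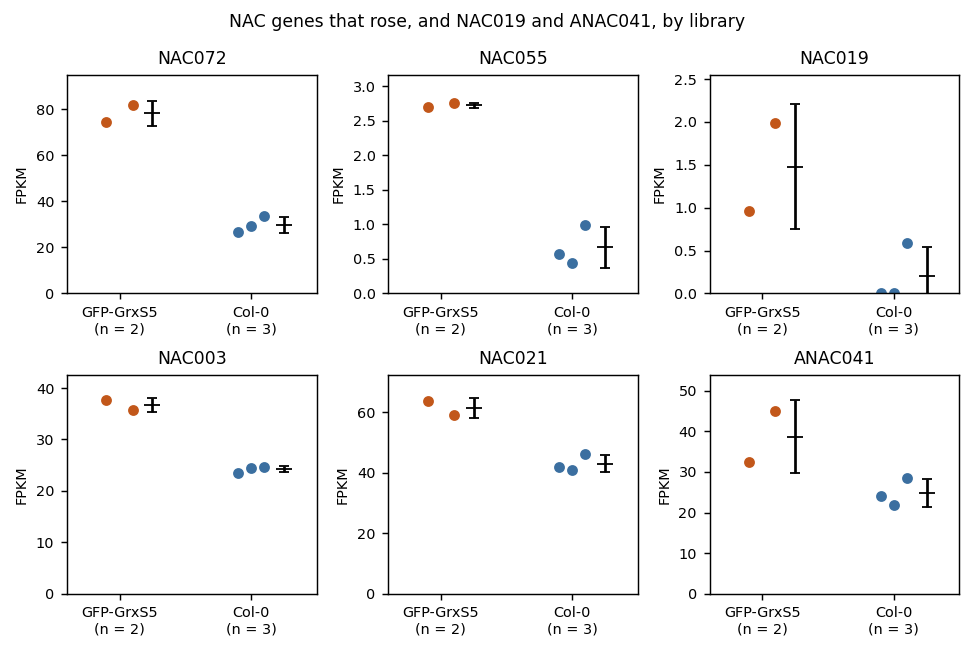
FPKM in each library (points, left GFP-GrxS5, right Col-0) of the 4 NAC genes that rose and of NAC019 and ANAC041, with the mean and SD of each genotype as bars and each panel on its own linear scale from 0. In all 6 panels both GFP-GrxS5 libraries lie above the 3 Col-0 libraries.

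The other stress regulators of the family are ATAF1 (NAC002), which responds to drought and ABA, ATAF2 (NAC081), known from wounding and pathogen responses, and NAC102, known from low-oxygen germination. These are among the 10 members of highest mean FPKM and share loci with other genes, so their values are uncertain. NAC002 had 47.5 and 60.3 FPKM in GFP-GrxS5 roots, against 48, 45.6 and 52.4 FPKM in Col-0 roots (adjusted p = 0.525). NAC081 had 51.3 and 57.1 FPKM in GFP-GrxS5 roots, against 45.8, 57.2 and 72.7 FPKM in Col-0 roots (adjusted p = 0.802). NAC102 had 68.1 and 74.2 FPKM in GFP-GrxS5 roots, against 70.6, 86.9 and 93.7 FPKM in Col-0 roots (limma adjusted p = 0.312). In each of the 3 the genotypes overlapped. Of the 5 stress and ABA members tested, 2 rose (40%, against 7.08% of all tested genes), 0 fell and 3 did not pass. The 2 include NAC055, which was tested through GFP-GrxS5 alone and lost its call whichever Col-0 library was left out.

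Genes known as outputs of drought and ABA signalling were examined as a list of 10. Of the 9 that were tested 0 passed in either direction. All 9 had log2 fold changes above 0, as had 10259 of 19693 tested genes. The median of the 9 was 0.52, against 0.01 over all tested genes. At an unadjusted p under 0.05 limma gave 3 higher and 0 lower. The genotypes did not overlap in 3 of the 9 (33.3%, against 42.8% of all tested genes). Single libraries weighed on some estimates. RAB18 had 0.937 and 15 FPKM in GFP-GrxS5 roots, against 0.305, 0.354 and 18 FPKM in Col-0 roots (log2 fold change 0.78, SE 1.29). The cold and ABA gene KIN2 averaged 545.1 ± 105.3 FPKM in GFP-GrxS5 (SD, n = 2) and 424.9 ± 16.7 FPKM in Col-0 (SD, n = 3), with an adjusted p of 0.12. VSP1, a jasmonate-induced storage protein gene, averaged 98.7 ± 22.8 FPKM in GFP-GrxS5 and 68.1 ± 8.11 FPKM in Col-0 (adjusted p = 0.0934). Without GFP-GrxS5 replicate 1 KIN2 passed (adjusted p = 0.0257; range over alternatives 0.0257 to 0.419), and without GFP-GrxS5 replicate 2 VSP1 passed (0.0494; range 0.0494 to 0.378). The summed level of all 10 listed genes was 727.9 to 948.8 FPKM in GFP-GrxS5 and 571.8 to 679.7 FPKM in Col-0 libraries. Most of each sum came from KIN2, its neighbour KIN1 and VSP1, so the sums say little about the other listed genes. The photosynthesis markers moved in the same direction as NAC072, NAC055 and this list, and their part in these results was not tested.

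NAC003 (AT1G02220; chromosome 1, 428814 to 430647), for which no role is given here, had 37.6 and 35.8 FPKM in GFP-GrxS5 roots, against 23.5, 24.4 and 24.6 FPKM in Col-0 roots. The spread within each genotype was small beside the gap between them. The log2 fold change was 0.58 (SE 0.09; limma, Benjamini-Hochberg adjusted p = 0.0108), and the call was lost without GFP-GrxS5 replicate 1 (adjusted p = 0.0672; range over alternatives 0.00828 to 0.0672). NAC004 is its neighbour on the chromosome, with 4526 bases between them, and NAC005 follows after another 1174 bases. NAC004 had 0.235 and 0.914 FPKM in GFP-GrxS5 roots, against 1.38, 0.533 and 0.728 FPKM in Col-0 roots, and overlapped between genotypes. NAC005 stayed at or below 0.604 FPKM in every library.

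ANAC041 (AT2G33480; chromosome 2, 14181186 to 14182402) had the largest fold change among members above 20 FPKM that did not pass. It had 32.4 and 45.1 FPKM in GFP-GrxS5 roots, against 24, 21.8 and 28.6 FPKM in Col-0 roots. The genotypes did not overlap, and the GFP-GrxS5 libraries differed from each other by more than the gap to the nearest Col-0 library. The log2 fold change was 0.61 (SE 0.17; limma, Benjamini-Hochberg adjusted p = 0.0717), and it passed in 0 of 13 alternatives (adjusted p 0.0573 to 0.314).

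NAC021 (AT1G56010; chromosome 1, 20944141 to 20949281), known as NAC1, acts downstream of auxin in lateral root formation and belongs to the NAC genes that the microRNA miR164 cleaves. It had 63.7 and 59.1 FPKM in GFP-GrxS5 roots, against 41.9, 41.1 and 46.2 FPKM in Col-0 roots. The genotypes did not overlap. The mean was 61.4 ± 3.25 FPKM in GFP-GrxS5 (SD, n = 2) and 43 ± 2.75 FPKM in Col-0 (SD, n = 3), with a log2 fold change of 0.50 (SE 0.09; limma, Benjamini-Hochberg adjusted p = 0.018). The files list it under a locus shared with a neighbouring gene, so its value is uncertain. The call was lost without Col-0 replicate 1 or 2 (adjusted p = 0.0583 and 0.0614) and without GFP-GrxS5 replicate 1 or 2 (0.0945 and 0.0586; range over alternatives 0.0154 to 0.0965), and also with no minimum level (0.0965) or no variance trend (0.0716).

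The mature miR164 sequences and the sites they match in NAC genes show which members carry a target site. In the microRNA lines the capitals mark the seed, bases 2 to 8. In the site lines, read 5′ to 3′ on the coding strand, capitals mark bases that differ from the perfect complement of miR164a.
miR164a and miR164b-5p: uGGAGAAGcagggcacgugca
miR164c-5p: uGGAGAAGcagggcacgugcg
NAC021 (chr1:20947142-20947162, minus strand): AgcacgtAccctgcttctcca
ANAC080 (chr5:2436958-2436978, plus strand): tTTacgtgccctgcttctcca
NAC100 (chr5:24701687-24701707, minus strand): tCTacgtgccctgcttctcca
NAC054 (chr3:5111137-5111157, plus strand): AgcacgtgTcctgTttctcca
NAC098 (chr5:21902301-21902321, minus strand): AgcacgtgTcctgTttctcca

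The microRNAs all have 1 seed, and miR164c differs from miR164a only at the last base. The sites come from RefSeq on TAIR10.1, lie in coding sequence, and are 21 bases long. With up to 4 mismatches allowed, 13 of 26690 protein-coding genes (0.0487%) held a match. Of these, 6 are NAC genes by name or RefSeq synonym, and 5 are among the 61. Matching genes without such a name were not checked for a NAC domain. NAC021, ANAC080 and NAC100 have 2 mismatches, and NAC054 and NAC098 have 3 and share 1 identical site. A match is a description of letters and no measure of cleavage.

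Of the other 3 tested members with a site, 0 passed in either direction. ANAC080 and NAC100 have the fewest mismatches beside NAC021 and were both expressed in the root. ANAC080 had 32.6 and 36.7 FPKM in GFP-GrxS5 roots, against 30.8, 37.3 and 30.1 FPKM in Col-0 roots (adjusted p = 0.716). NAC100 had 8.12 and 9.85 FPKM in GFP-GrxS5 roots, against 9.9, 12.6 and 9.42 FPKM in Col-0 roots (limma adjusted p = 0.468). Both overlapped between genotypes. NAC054 and NAC098 are CUC1 and CUC2, which separate organs at the shoot apex. NAC054 had 1.07 and 1.73 FPKM in GFP-GrxS5 roots, against 2.88, 1.52 and 1.93 FPKM in Col-0 roots (limma adjusted p = 0.473). NAC098 was above 0 in 1 library of each genotype, at 0.434 FPKM in GFP-GrxS5 and 0.447 FPKM in Col-0, and was not tested. NAC031 (CUC3), a boundary gene without a miR164 site, reached 0.297 FPKM in GFP-GrxS5 and 0.473 FPKM in Col-0. ATNAC2 (AT5G39610), a NAC gene outside the name rule, has a site with 4 mismatches. It had 4.41 and 3.53 FPKM in GFP-GrxS5 roots, against 2.05, 1.66 and 1.95 FPKM in Col-0 roots, with no overlap. Its log2 fold change of 0.78 (SE 0.21) did not pass (limma adjusted p = 0.0681), but passed without a variance trend (0.0433). Whether the change of NAC021 differs from that of the other genes was not tested. The precursor genes MIR164A and MIR164C were listed at 0 in all 5 libraries, and MIR164B had 0 and 51 FPKM in GFP-GrxS5, against 19.2, 0 and 0 FPKM in Col-0. Fragments behind the MIR164B values were not estimated, and it was above 0 in only 1 library of each genotype.

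**Figure D3:**
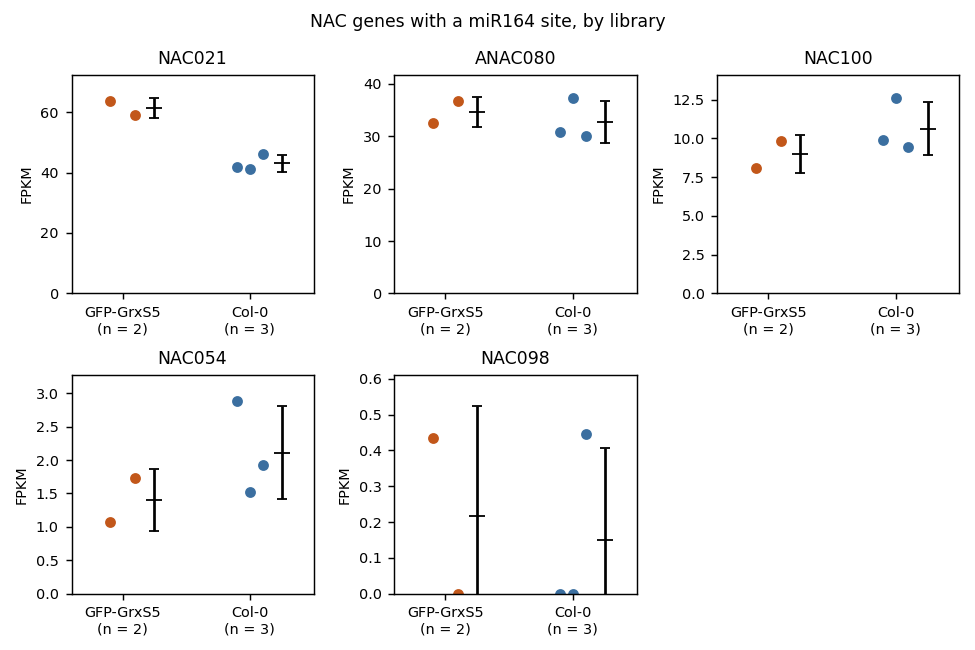
FPKM in each library (points, left GFP-GrxS5, right Col-0) of the 5 NAC genes with a miR164 site, with the mean and SD of each genotype as bars and each panel on its own linear scale from 0. The genotypes are apart in NAC021 and overlap in ANAC080, NAC100, NAC054 and NAC098.

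The 250 bases before the starts of the 4 genes that rose are shown because the glutaredoxin class is known for acting on TGA factors, which bind TGACG, and because ABA factors bind ACGTG. Both motifs were searched on both strands, and a match within TGACGTG counts for both. Sequences are from RefSeq on TAIR10.1, read 5′ to 3′ towards the gene, with motif matches in capitals.
NAC072 (chr4:13709171-13709420, minus strand): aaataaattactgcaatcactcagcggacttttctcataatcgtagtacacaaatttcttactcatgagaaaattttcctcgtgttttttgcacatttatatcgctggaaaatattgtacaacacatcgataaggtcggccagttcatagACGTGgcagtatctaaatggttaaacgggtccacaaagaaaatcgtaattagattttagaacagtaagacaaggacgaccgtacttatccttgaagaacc
NAC055 (chr3:5234207-5234456, plus strand): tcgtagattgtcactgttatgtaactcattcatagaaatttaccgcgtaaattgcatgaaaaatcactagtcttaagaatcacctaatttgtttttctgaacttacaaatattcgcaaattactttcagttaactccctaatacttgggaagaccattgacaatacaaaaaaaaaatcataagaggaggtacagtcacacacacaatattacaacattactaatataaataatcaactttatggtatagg
NAC003 (chr1:430721-430970, minus strand): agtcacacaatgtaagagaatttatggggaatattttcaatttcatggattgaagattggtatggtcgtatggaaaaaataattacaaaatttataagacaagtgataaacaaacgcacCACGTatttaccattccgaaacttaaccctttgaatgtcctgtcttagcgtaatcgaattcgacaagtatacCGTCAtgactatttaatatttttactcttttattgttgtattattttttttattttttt
NAC021 (chr1:20949282-20949531, minus strand): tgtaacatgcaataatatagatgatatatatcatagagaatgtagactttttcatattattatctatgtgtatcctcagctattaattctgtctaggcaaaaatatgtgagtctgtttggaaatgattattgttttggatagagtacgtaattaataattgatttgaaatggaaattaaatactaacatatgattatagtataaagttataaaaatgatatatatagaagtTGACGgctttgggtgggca

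NAC072 holds ACGTG once, at base -100 counted from the gene start. NAC003 holds ACGTG at -131 and TGACG at -59, both on the opposite strand. NAC021 holds TGACG at -19, and NAC055 holds neither in this window. TGACG is in 13 of 61 NAC promoters (21.3%), against 18.6% of 26689 promoters of the same length. ACGTG is in 19 of 61 (31.1%), against 23.1% of all. Among the 46 tested NAC genes the counts are 11 and 13 (23.9% and 28.3%), against 19.2% and 23.8% of 19172 promoters of tested genes. A match of 5 letters is a description, not a binding site.

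Of the family, 11 members were grouped here as membrane-bound, and all 11 were tested. Each gene was given at most 1 role, so members of other groups may be membrane-bound too. None passed (0 higher, 0 lower), at an unadjusted p under 0.05 limma gave 0 as well, and the median log2 fold change was -0.00. NAC017, which carries signals from mitochondria to the nucleus and controls the alternative oxidase gene AOX1A, had 41.9 and 38.2 FPKM in GFP-GrxS5 roots, against 39.6, 42.8 and 38.3 FPKM in Col-0 roots (limma adjusted p = 0.976). NAC13, its partner in that response, had 8.12 and 4.44 FPKM in GFP-GrxS5 roots, against 7.93, 7.27 and 6.75 FPKM in Col-0 roots. The genotypes overlapped in both genes.

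NAC053 and NAC078 induce proteasome genes when proteasomes fail. NAC053 had 37.6 and 38 FPKM in GFP-GrxS5 roots, against 29, 32.7 and 37.5 FPKM in Col-0 roots (limma adjusted p = 0.35). NAC078 had 42.3 and 36.7 FPKM in GFP-GrxS5 roots, against 43, 47.8 and 45.1 FPKM in Col-0 roots (limma adjusted p = 0.264). The pair did not overlap between genotypes and lay on opposite sides of Col-0, neither past the test. Among the remaining members were NAC062 (20.1 ± 5.7 FPKM in GFP-GrxS5, SD, n = 2; 20 ± 4.04 FPKM in Col-0, SD, n = 3) and NAC089 (11 ± 3.21 FPKM in GFP-GrxS5; 8.43 ± 1.84 FPKM in Col-0), both regulators of protein-folding stress. ANAC091, known as TIP from its binding to a viral coat protein, averaged 23.9 ± 3.02 FPKM in GFP-GrxS5 and 27.4 ± 2.74 FPKM in Col-0. The others were NAC014, NAC60, known from sugar and ABA sensitivity, NAC68, known from cell division, and NAC69, known from germination in salt. Their log2 fold changes ran from -0.33 (NAC68) to 0.34 (NAC60).

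Of 10 tested mitochondrial stress genes 0 passed (limma, 0 higher and 2 lower at an unadjusted p under 0.05), with a median log2 fold change of 0.01 that became -0.01 under median-of-ratios scaling and -0.04 under quantile normalization. AOX1A averaged 36.8 FPKM in GFP-GrxS5 and 38.7 FPKM in Col-0 roots. The nearest to the threshold was the chaperone gene HSP23.5, at 7.04 ± 1.28 FPKM in GFP-GrxS5 (SD, n = 2) and 11.8 ± 1.37 FPKM in Col-0 (SD, n = 3; limma adjusted p = 0.052). It passed when the minimum was raised to 5 FPKM (adjusted p = 0.0442) and with median-of-ratios (0.0464) or quantile (0.0402) scaling (range over alternatives 0.0402 to 0.203). Of 8 proteasome subunit genes 0 passed, with 0 higher and 2 lower at an unadjusted p under 0.05 and a median of -0.11. The subunit gene RPN2A averaged 62.8 ± 5.02 FPKM in GFP-GrxS5 (SD, n = 2) and 81.1 ± 5.89 FPKM in Col-0 (SD, n = 3; limma adjusted p = 0.0607), and passed as lower under quantile normalization (0.0401; range over alternatives 0.0401 to 0.223). The mitochondrial dysfunction motif, which NAC017 and NAC13 are known to bind, was searched on both strands of the 250 bases before each gene and found in 3 of 61 NAC genes (NAC010, NAC017 and NAC045; 4.92%), against 1.18% of all promoters, and in 0 of the 4 genes that rose. This is a description of letters only.

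SOG1 (NAC008) is the plant regulator of the DNA damage response. It had 18.9 and 17 FPKM in GFP-GrxS5 roots, against 19.1, 18.5 and 16.3 FPKM in Col-0 roots, with overlapping genotypes and an adjusted p of 0.999. Of its 12 tested targets 0 passed (limma, 0 higher and 1 lower at an unadjusted p under 0.05). In 11 of 12 the log2 fold change was below 0, against 9434 of 19693 tested genes, with a median of -0.27. The target above 0 was SMR7, with 13.9 and 10.3 FPKM in GFP-GrxS5 roots, against 3.87, 11.2 and 6.14 FPKM in Col-0 roots. Its genotypes overlapped, and its log2 fold change of 0.78 (SE 0.36) did not pass (limma adjusted p = 0.229). The cell cycle inhibitor gene SMR4 averaged 3.99 ± 0.723 FPKM in GFP-GrxS5 (SD, n = 2) and 7.55 ± 1.14 FPKM in Col-0 (SD, n = 3; limma adjusted p = 0.0527), and it passed under median-of-ratios scaling (0.0465) and quantile normalization (0.0413; range over alternatives 0.0413 to 0.216). Its relative SMR5 was listed at 0 in both GFP-GrxS5 libraries and had 18.6, 0 and 4.91 FPKM in Col-0 roots, and passed only without Col-0 replicate 2 (adjusted p = 0.0238; range 0.0238 to 0.663).

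The senescence members were led by ANAC083, or VNI2, which restrains xylem vessel formation and prolongs leaf life, and which had the highest mean FPKM of the 61. It had 114.6 and 112 FPKM in GFP-GrxS5 roots, against 103.5, 113.3 and 101.5 FPKM in Col-0 roots (limma adjusted p = 0.488). ANAC087, which with a relative drives cell death in the root cap, had 28 and 28.7 FPKM in GFP-GrxS5 roots, against 21.1, 22.5 and 24.8 FPKM in Col-0 roots. Its genotypes did not overlap, and the log2 fold change of 0.31 (SE 0.10) did not pass (limma adjusted p = 0.126). NAC029 (NAP), an activator of leaf senescence, averaged 4.3 ± 1.51 FPKM in GFP-GrxS5 and 3.79 ± 0.922 FPKM in Col-0, and NAC016, which promotes chlorophyll loss, 1.33 ± 0.537 FPKM in GFP-GrxS5 and 1.7 ± 0.36 FPKM in Col-0.

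Of 9 tested senescence genes 0 passed, with 2 higher and 1 lower at an unadjusted p under 0.05 in limma and a median log2 fold change of 0.26. SAG12, the standard marker of leaf senescence, was listed at 0 in all 5 libraries. NYC1, a chlorophyll b reductase gene, averaged 11.4 ± 0.125 FPKM in GFP-GrxS5 (SD, n = 2) and 6.71 ± 1.8 FPKM in Col-0 (SD, n = 3; limma adjusted p = 0.0968). NYC1 acts in chloroplasts, and the photosynthesis markers were higher in the same libraries. Their part in it was not tested.

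Of 9 genes of root cap cell death 2 rose (22.2%, against 7.08% of all tested genes) and 0 fell. The median log2 fold change was 0.30, against 0.01 over all tested genes, and at an unadjusted p under 0.05 limma gave 4 higher and 1 lower. The genes BFN1 and RNS3 are on both this list and the senescence list. RNS3 is counted as higher at an unadjusted p under 0.05 in both, so the lists are not independent. The metacaspase gene MC9 had 52.3 and 51 FPKM in GFP-GrxS5 roots, against 40.2, 36.8 and 41.1 FPKM in Col-0 roots (log2 fold change 0.38, SE 0.09; limma adjusted p = 0.0399). The carboxypeptidase gene SCPL48 had 100.8 and 99.4 FPKM in GFP-GrxS5 roots, against 82, 69.6 and 77.1 FPKM in Col-0 roots (log2 fold change 0.39, SE 0.09; limma adjusted p = 0.0406). Neither overlapped between genotypes, and SCPL48 is listed under a shared locus. MC9 lost its call whichever library was left out (adjusted p 0.074 to 0.143; range over all alternatives 0.0348 to 0.143), and SCPL48 without Col-0 replicate 2 or 3 (0.104 and 0.0944) or GFP-GrxS5 replicate 1 or 2 (0.139 and 0.125; range 0.0362 to 0.162). Both lost it under median-of-ratios scaling, quantile normalization, no minimum level and no trend of variance. The nuclease gene BFN1 (30.9 ± 4.1 FPKM in GFP-GrxS5, 23.8 ± 4.3 FPKM in Col-0) and the protease gene PASPA3 (16 ± 0.816 FPKM in GFP-GrxS5, 11.5 ± 1.38 FPKM in Col-0) did not pass. The cellulase gene CEL5, known from root cap shedding, did not pass and had 21.2 and 22 FPKM in GFP-GrxS5 roots, against 31.9, 28.4 and 24.5 FPKM in Col-0 roots, with no overlap (log2 fold change -0.37, SE 0.12; limma adjusted p = 0.129). MC9 and SCPL48 are also expressed in maturing xylem, so the list is not particular to the root cap.

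**Figure D4:**
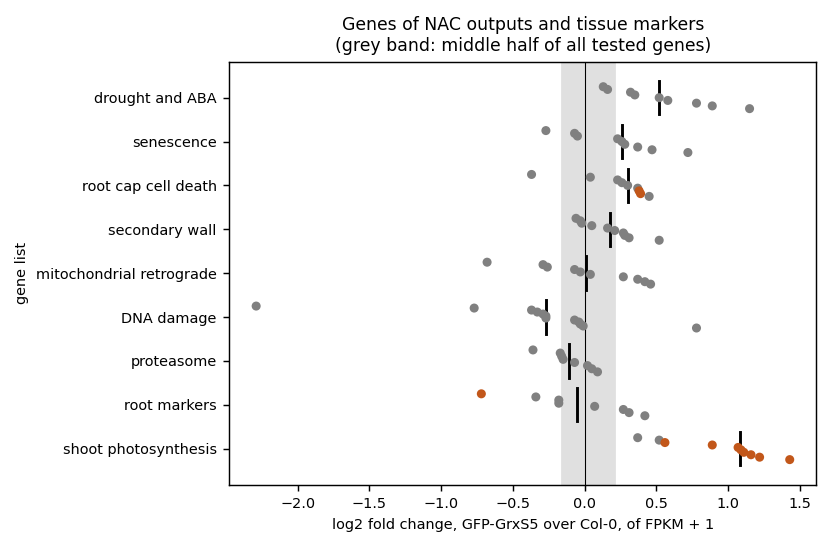
Log2 fold change of GFP-GrxS5 over Col-0 (x axis, log2 scale of FPKM + 1) for the tested genes of each list (rows); black ticks are list medians, orange points passed an adjusted p under 0.05, and the grey band runs over the middle 50% of all tested genes (-0.16 to 0.21). Orange points stand in the root cap cell death list (2), the root markers (1) and the shoot photosynthesis markers (8).

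The regulators of xylem and secondary walls number 11, of which 8 were tested and 0 passed (limma, 0 in either direction at an unadjusted p under 0.05). The master switches of fibre walls NAC012 (SND1), NAC043 (NST1) and NAC066 (NST2) were listed at 0 in all 5 libraries. The vessel regulators NAC037, NAC076, NAC105, NAC007 and NAC026 (VND1 to VND5) were at low levels, each averaging between 1.28 (NAC026) and 6.13 FPKM (NAC105) in GFP-GrxS5 and between 1.06 (NAC076) and 4.95 FPKM (NAC105) in Col-0 roots. NAC073 (SND2), a later step in the wall cascade, had 7.93 and 6.75 FPKM in GFP-GrxS5 roots, against 6.04, 5.69 and 3.79 FPKM in Col-0 roots. Its genotypes did not overlap (log2 fold change 0.45, SE 0.21; limma adjusted p = 0.24). Nor did those of NAC007 (0.30, SE 0.21) and NAC076 (0.60, SE 0.30, listed under a shared locus), with limma adjusted p = 0.426 and 0.268. In all, 3 of the 8 did not overlap (37.5%, against 42.8% of all tested genes). NAC010 (SND3) and ANAC104 (XND1), a repressor of xylem differentiation, overlapped between genotypes. Of 10 secondary wall genes 0 passed (limma, 2 higher and 0 lower at an unadjusted p under 0.05), with a median of 0.18. The xylem protease gene XCP2 averaged 104.9 ± 4.13 FPKM in GFP-GrxS5 and 87.1 ± 4.97 FPKM in Col-0 (limma adjusted p = 0.0898).

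NAC045 and NAC086 clear the nucleus of phloem sieve elements, and ANAC020 acts earlier in the same tissue. NAC045 had 1.5 and 2.16 FPKM in GFP-GrxS5 roots, against 1.63, 0.567 and 2.24 FPKM in Col-0 roots. NAC086 had 2.69 and 2.61 FPKM in GFP-GrxS5 roots, against 3.61, 2.48 and 2.26 FPKM in Col-0 roots. Both overlapped. ANAC020 had 0.904 and 2.05 FPKM in GFP-GrxS5 roots, against 3.53, 2.3 and 2.56 FPKM in Col-0 roots, with no overlap and the lowest log2 fold change of the family (-0.64, SE 0.28; limma adjusted p = 0.217). It rests on an estimated 4 to 8 fragments per GFP-GrxS5 library and 10 to 18 per Col-0 library.

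ANAC050 and ANAC052 are neighbours that guide a histone demethylase and delay flowering. ANAC050 had 20.6 and 20.5 FPKM in GFP-GrxS5 roots, against 23.1, 22 and 22.5 FPKM in Col-0 roots. ANAC052 had 26 and 31 FPKM in GFP-GrxS5 roots, against 34.1, 33.5 and 28.9 FPKM in Col-0 roots. The first did not overlap between genotypes and the other did, and neither passed (limma adjusted p = 0.449 and 0.41). As near copies side by side they may share reads, and together with NAC053, with 606 bases between it and ANAC052, they form a run of 3 members on chromosome 3. ANAC034 (LOV1), a flowering repressor, had 2.44 and 1.46 FPKM in GFP-GrxS5 roots, against 0.501, 0.969 and 0.193 FPKM in Col-0 roots. The log2 fold change of 0.93 (SE 0.33) did not pass (limma adjusted p = 0.135), and this gene too was tested through its GFP-GrxS5 libraries alone, so that the genotypes could not overlap. NAC018, which acts in the seed coat, had 3.27 and 4.01 FPKM in GFP-GrxS5 roots, against 2.18, 2.92 and 3.02 FPKM in Col-0 roots (limma adjusted p = 0.383). Its genotypes did not overlap either.

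**Figure D5:**
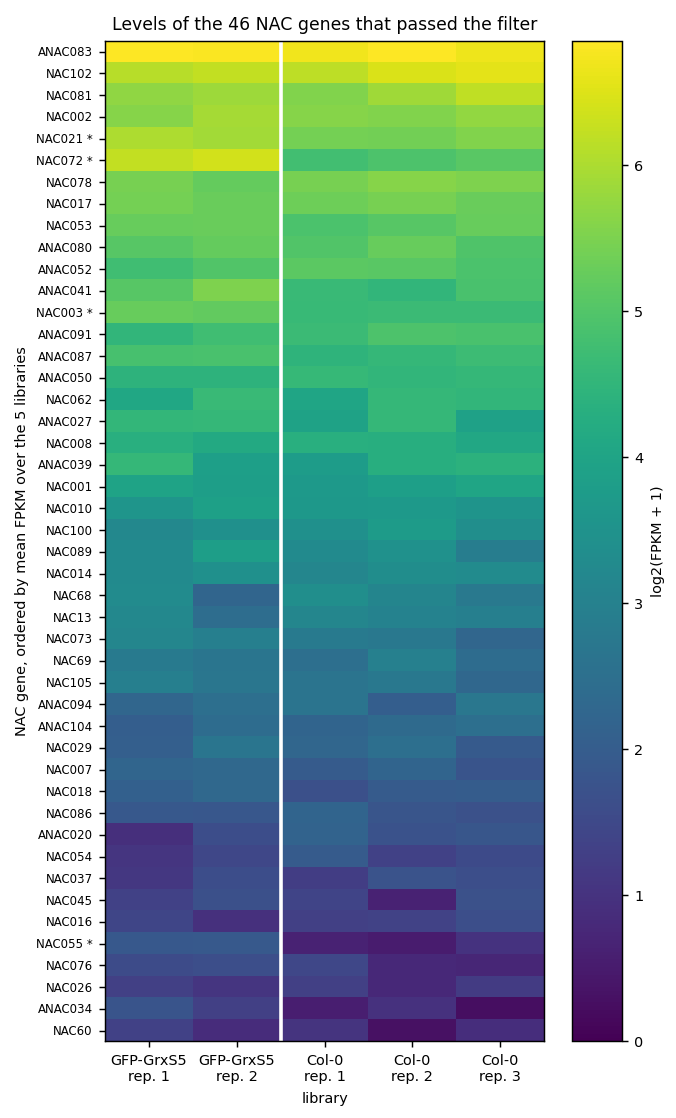
Level (colour, log2 of FPKM + 1) of the 46 tested NAC genes (rows, from the highest to the lowest mean over all libraries) in the 2 GFP-GrxS5 libraries (left) and the 3 Col-0 libraries (right of the white line); asterisks mark the 4 genes that rose. ANAC083 is at the top and NAC60 at the bottom, and the change of NAC072 shows as a step between the genotypes.

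By level, 5 tested NAC genes averaged 50 FPKM or more over the 5 libraries, 12 averaged 20 to 50, 13 averaged 5 to 20 and 16 less than 5. In the order of GFP-GrxS5 means, NAC072 was next after ANAC083, ahead of NAC102 (71.1 ± 4.31 FPKM, SD, n = 2), whose higher library lay just below the lower one of NAC072. In Col-0 roots it stood below ANAC083, NAC102 (83.7 ± 11.9), NAC081 (58.6 ± 13.5), NAC002 (48.7 ± 3.47), NAC078 (45.3 ± 2.45), NAC021 (43 ± 2.75) and NAC017 (40.2 ± 2.36 FPKM, SD, n = 3 each). NAC053, ANAC080 and ANAC052 averaged more as well, by less than their SD. Of the 15 members that were not tested, NAC006, NAC012, NAC025, NAC043, NAC061, NAC066, NAC090 and ANAC093 were listed at 0 in all 5 libraries. The other 7 were NAC004, NAC005, ANAC011, NAC019, ANAC023, NAC031 and NAC098. ANAC011 was at 0 in both GFP-GrxS5 libraries and had 0.621, 1.08 and 0.984 FPKM in Col-0 roots, an estimated 3 to 5 fragments per library.

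Of the 37 NAC genes with other names 25 were tested, of which 1 rose and 0 fell (4%), with a median log2 fold change of -0.07. The gene that rose, ATNAC3 (AT3G29035), is a senescence regulator. It had 29.7 and 27.6 FPKM in GFP-GrxS5 roots, against 21.5, 17.9 and 21.1 FPKM in Col-0 roots (log2 fold change 0.49, SE 0.11; limma, Benjamini-Hochberg adjusted p = 0.0466). It passed in 3 of 13 alternatives, lost its call whichever library was left out, and its adjusted p ranged from 0.0368 to 0.173. The log2 fold changes of the 25 ran from -0.98 (JUB1) to 0.78 (ATNAC2, AT5G39610). JUB1 had 0.304 and 0.394 FPKM in GFP-GrxS5 roots, against 2.08, 1.38 and 1.57 FPKM in Col-0 roots. It did not pass (limma adjusted p = 0.072), but passed without a variance trend (0.0356). The share called was thus 8.7% of the 46 tested and 4% of these 25, against 7.08% of all 19693 tested genes. The 8.7% includes NAC055, which was tested through GFP-GrxS5 alone. The difference of these shares was not tested.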

How the data were processed

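RNA of roots from GFP-GrxS5 (2 libraries) and Col-0 (3 libraries) was analysed as FPKM per gene, deposited by the authors. The build was TAIR10, per the submitters' processing notes. Aligner, quantification program, strand use and the handling of shared reads are not given in the sources used, so overlapping, neighbouring and near-identical genes are uncertain. Of the 61 NAC genes, 8 are listed under shared loci (NAC002, NAC13, NAC021, ANAC027, NAC076, NAC078, NAC081 and NAC102).

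Genes of at least 1 FPKM in at least 2 libraries and status OK were kept (19693) and compared on log2(FPKM + 1) by limma 3.58.1 in R 4.3.3, with a variance trend, all 5 libraries and a threshold of 0.05. Fold changes on this scale understate low genes. Residual degrees of freedom were 3, and prior ones had a median of 4.37. Pearson correlations across genes, which are not independent replicates, were 0.975 to 0.979 within and 0.96 to 0.965 between genotypes. The fit was tested on simulated data. The 13 alternatives were a pseudocount of 0.1 or 0.5, no minimum or 5 FPKM, 2 other scalings (median of ratios, quantile), no trend, a replicate block, and each library left out. Depth was estimated from the FPKM of low genes of 1 fragment, and fragment numbers in the text are such estimates and cover counting error only. FPKM was not turned into counts. Gene coordinates are those of the files. Sites and promoters were read from RefSeq on TAIR10.1.

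Named genes were members past the threshold or changed at least 2-fold on that scale, the 10 of highest mean, those with a miR164 site, small role groups, the 4 of smallest p in each list, and GrxS5. Of the 4 in each list only some are described in the text, and no rule is given for that choice. Others were chosen after their values were seen (ANAC041, ANAC087, NAC019, AOX1A, SAG12, RAB18, ATNAC2, JUB1 and the remaining members described). Members and lists were chosen with earlier results of these data known.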

Additional observations from a re-analysis of the deposited data

How the results depend on the processing

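Depth limits the low members: NAC055, ANAC034, ANAC020 and NAC019 rest on few estimated fragments, and a change of theirs may be undetectable at this depth. Lower NAC genes stayed at 0 under all 13 alternatives. Higher NAC genes, 4 in the comparison, were 2 with no filter on low FPKM and 1 to 3 with a library left out (without GFP-GrxS5 replicate 1 NAC072 alone, and ANAC027 passed only without Col-0 replicate 2). Over all genes, 932 higher and 462 lower became 202 and 109 with no filter, 398 and 184 without a variance trend, and 313 to 594 and 192 to 242 with a library left out. Quantile normalization gave 789 and 648, or 54.9% higher in place of 66.9%. Why counts moved was not tested. With the replicate block, 1 NAC gene (NAC072) and 418 higher and 176 lower genes passed; NAC003, NAC021 and NAC055 had adjusted p = 0.0606, 0.0525 and 0.0947. Deviations of same-numbered libraries from their genotype means showed almost no correlation (-0.0395 and -0.00804). With 2 GFP-GrxS5 libraries these deviations mirror each other, so the correlations cannot decide whether the numbers pair libraries.

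Over the 46 tested NAC genes the sign turned under at least 1 alternative in 20, of which 0 passed in any setting. For those of them that the naming rule took in, the values follow. NAC008 was -0.0138 under median-of-ratios scaling, -0.0397 under quantile normalization, -0.0656 with the replicate block and -0.0748 to 0.0755 with a library left out. NAC081 was 0.0796 with the block and -0.249 to 0.0796 with a library left out. The leave-one-out ranges were -0.0315 to 0.306 for NAC002, -0.0729 to 0.0599 for NAC017, -0.0529 to 0.471 for NAC045, -0.000718 to 0.179 for ANAC080 and -0.133 to 0.119 for NAC086 (log2 fold changes).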
